A study of Mus musculus with 20 samples.

Results

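Complement genes listed for stromal cells were described here in Sca-1+ cells of the mouse kidney, across 20 RNA-seq libraries. Which cells made each of them was not tested. The members are 9 listed genes, C1ra, C1s1, C4b, C2, Serping1, C3, Cfb, Cfi and Cd55, of the 47729 genes in each deposited count file, and all 9 were found by Ensembl identifier. They were chosen by name and pathway, with earlier results of these data known. The chains of C1q, which macrophages make, are not members and are given only beside them.

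Kidneys were digested and cells that carry Sca-1 (the product of Ly6a) were sorted with magnetic beads. The labels call them mesenchymal stem cell-like. Roxadustat is an anemia drug that inhibits the prolyl hydroxylases of hypoxia-inducible factor. At day 0 the cells were sequenced without culture, 2 libraries from mice injected intraperitoneally with roxadustat (33 mg/kg) for 7 days and 2 from untreated control mice. At days 7 and 21 they had been cultured in stromal cell medium with serum in room-air oxygen, with 4 roxadustat and 4 control libraries at each time. The series design text places roxadustat in the culture medium, while the single treatment protocol given for all libraries names only the injections. Strain, age and sex of the mice are not in the labels used here, and no label ties a replicate to an animal or culture of its own, so the p-values measure only the spread between these libraries, which may be technical. Every group passed the same Sca-1 sort.

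Complement is a cascade of proteases in plasma and tissue fluid. In the classical pathway C1q binds its target, the proteases C1r and C1s are activated on it and cleave C4 and C2, and the resulting convertase cleaves C3. The alternative pathway amplifies the cleavage of C3 with factor B. C1 inhibitor stops C1r and C1s, factor I cleaves C3b and C4b with cofactors, and CD55 on the cell surface speeds the decay of the convertases. Liver makes most of the plasma proteins, and fibroblasts and kidney tubule cells make several of them locally.

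The proteases of the C1 complex are encoded by C1ra (ENSMUSG00000055172, chr6:124512405-124523443, plus strand) and C1s1 (ENSMUSG00000038521, chr6:124530345-124542359, minus strand), which lie side by side. C4b (ENSMUSG00000073418, chr17:34728380-34743882), C2 (ENSMUSG00000024371, chr17:34862604-34898265) and Cfb, the factor B gene (ENSMUSG00000090231, chr17:34856374-34862518), lie near each other on the minus strand of 1 chromosome. C3 (ENSMUSG00000024164, chr17:57203970-57228136, minus strand) is on the same chromosome. Serping1, the C1 inhibitor gene (ENSMUSG00000023224), is at chr2:84765387-84775444 on the minus strand. Cfi, the factor I gene (ENSMUSG00000058952), is at chr3:129835884-129875332 on the plus strand, and Cd55 (ENSMUSG00000026399) is at chr1:130439027-130462744 on the minus strand. All are protein coding, and coordinates are those of GENCODE M21 on GRCm38.

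Promoter sequences are shown for C3, C1s1 and Cd55, whose levels took 3 different courses across the groups. RefSeq (GRCm38.p6) promoters were matched for 4 of the 9 members. The 250 bases before the annotated start are printed 5′ to 3′ on the gene's strand, with capitals for matches to a searched motif. The windows are chr17:57228137-57228386 for C3, chr6:124542360-124542609 for C1s1 and chr1:130462745-130462994 for Cd55, all on the minus strand.
C3: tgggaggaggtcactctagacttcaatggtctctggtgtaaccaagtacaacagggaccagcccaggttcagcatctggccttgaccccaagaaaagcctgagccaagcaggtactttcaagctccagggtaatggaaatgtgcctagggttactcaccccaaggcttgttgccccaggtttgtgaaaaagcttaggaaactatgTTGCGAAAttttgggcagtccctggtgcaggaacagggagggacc
C1s1: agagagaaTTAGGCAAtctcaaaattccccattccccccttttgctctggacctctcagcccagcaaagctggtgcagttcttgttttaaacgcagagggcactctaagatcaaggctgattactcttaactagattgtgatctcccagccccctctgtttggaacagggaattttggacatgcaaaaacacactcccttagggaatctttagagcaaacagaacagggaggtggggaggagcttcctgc
Cd55: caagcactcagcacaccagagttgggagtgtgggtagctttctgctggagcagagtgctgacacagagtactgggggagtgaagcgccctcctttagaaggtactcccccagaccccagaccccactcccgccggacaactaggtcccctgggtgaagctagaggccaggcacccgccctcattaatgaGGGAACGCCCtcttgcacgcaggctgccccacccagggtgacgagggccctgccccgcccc
The motifs were searched on both strands as TTGCNNAA (C/EBP), TTCNNNGAA (STAT, gamma-activated site), GGGNN followed at once by TTNCC (NF-kB), ACGTG (core of the hypoxia response element) and GAAANN followed at once by GAAA (interferon response element). C3 held 1 C/EBP match at bases -45 to -38 before the start. C1s1 held 1 on the opposite strand at -242 to -235. Cd55 held 1 NF-kB match on the opposite strand at -61 to -52. None of the 3 windows held the letters of the other motifs. The window of C1ra, the matched member that is not printed, held none of the letters searched. Of 32851 RefSeq promoter windows of this length, 9.56% held the C/EBP letters, 7.02% the STAT letters, 4.11% the NF-kB letters, 16.6% the hypoxia core and 2.98% the interferon letters. A match of letters is a description and does not show a bound site.

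Total counts per library were 8502011 to 19903160, with roxadustat day 21 replicate 3 the shallowest and the next at 12822739. Levels are CPM, the counts divided by library size with TMM scaling on the usual scale per megaread. No pair of replicates agreed within sampling noise. Among control libraries of day 21, replicates 1 and 2 and replicates 3 and 4 were closer to each other (a chi-square per gene of 2.62 and 2.25, with 1 for sampling noise) than the other pairs (19.2 to 26.0). Fibroblast markers (12 genes, none at 0 in any group) summed to 1541 to 2535 CPM in roxadustat and 286 to 487 CPM in control libraries at day 0, to 6667 to 7730 CPM in roxadustat and 10601 to 11214 CPM in control libraries at day 7, and to 2538 to 3780 CPM in roxadustat and 47481 to 50716 CPM in control libraries at day 21. Kidney epithelial markers (12 genes) summed to 25965 to 26863 CPM in roxadustat and 28831 to 31100 CPM in control libraries at day 0. They summed to 666 to 686 CPM in roxadustat and 276 to 293 CPM in control libraries at day 7, and to 595 to 606 CPM in roxadustat and 18.9 to 22.6 CPM in control libraries at day 21, where Hnf4a was at 0 in control. Fibroblast sums were thus highest in control cultures of day 21, and in fresh cells the epithelial sums were above the fibroblast sums, whatever their stromal label. Endothelial markers (10 genes, none at 0) summed to 167 to 176 CPM in roxadustat and 277 to 317 CPM in control libraries at day 0, to 26.3 to 32.1 CPM in roxadustat and 76.8 to 82.6 CPM in control libraries at day 7, and to 78.2 to 82.2 CPM in roxadustat and 273 to 297 CPM in control libraries at day 21. In bulk RNA, fewer cells of a type and less RNA per cell cannot be told apart. Endothelial sums do not stand for most genes of their list. With roxadustat the day 7 sum was lower, yet 4 of the 10 genes rose and 4 fell (median log2 1.40). Control sums of day 21 overlapped with those of day 0, yet 9 of 10 genes fell in the first week and only Flt1 rose. Between days 7 and 21, 4 rose and 1 fell in control cells. Endothelial content itself was not tested.

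The members differed in their order across the 6 groups (the plot of levels by library). C1ra, C1s1 and Serping1 were highest in control cells of day 21, above every library of the other groups. C1ra and C1s1 came next in roxadustat and then control cells of day 0, and their levels in the remaining cultures overlapped, those of C1s1 also with control cells of day 0. Serping1 came next in roxadustat cells of day 21, and its libraries overlapped only between roxadustat cells of day 7 and control cells of day 0. The other 6 were highest in roxadustat cells of day 0. C4b and Cfb ran in 1 order, with control cells of day 0 and then control cells of day 21 next, and their lowest groups overlapped. C3 overlapped between neighbours among roxadustat cells of day 0, control cells of day 0 and control cells of day 21, which lay above the remaining 3 groups, each apart from the next. Cfi overlapped between neighbours among the fresh groups and both roxadustat cultures, and control cells of day 7 and then of day 21 lay below them. Cd55 had roxadustat cells of day 21 second, overlapping with control cells of day 0, which overlapped with roxadustat cells of day 7, and again control cells of day 7 and of day 21 came last without overlap. For C2, control cells of day 0 and 3 of the cultures overlapped as neighbours, and control cells of day 21 lay below them. The ratio of the highest to the lowest group mean was 2.17 for C2, 8.38 for Cd55, 9.36 for Serping1, 15.9 for Cfi, 19.4 for C1ra, 22.6 for C3, 25.1 for C1s1, 77.5 for C4b and 424 for Cfb. Per kilobase of exon that is not shared with another gene, Cfb (41.7 CPM per kb in roxadustat and 33.3 in control cells) and C3 (28.3 in roxadustat and 16.9 in control cells) led the members at day 0. Serping1 led in roxadustat cells at day 7 (7.55 CPM per kb) and day 21 (16.7), C2 led in control cells at day 7 (5.20), and C1s1 led in control cells at day 21 (49.7), ahead of Serping1 (34.7). The per-kilobase values of Cfb, C2 and C1s1 assume that reads in exons shared with other genes were not counted.

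**Figure D1:**
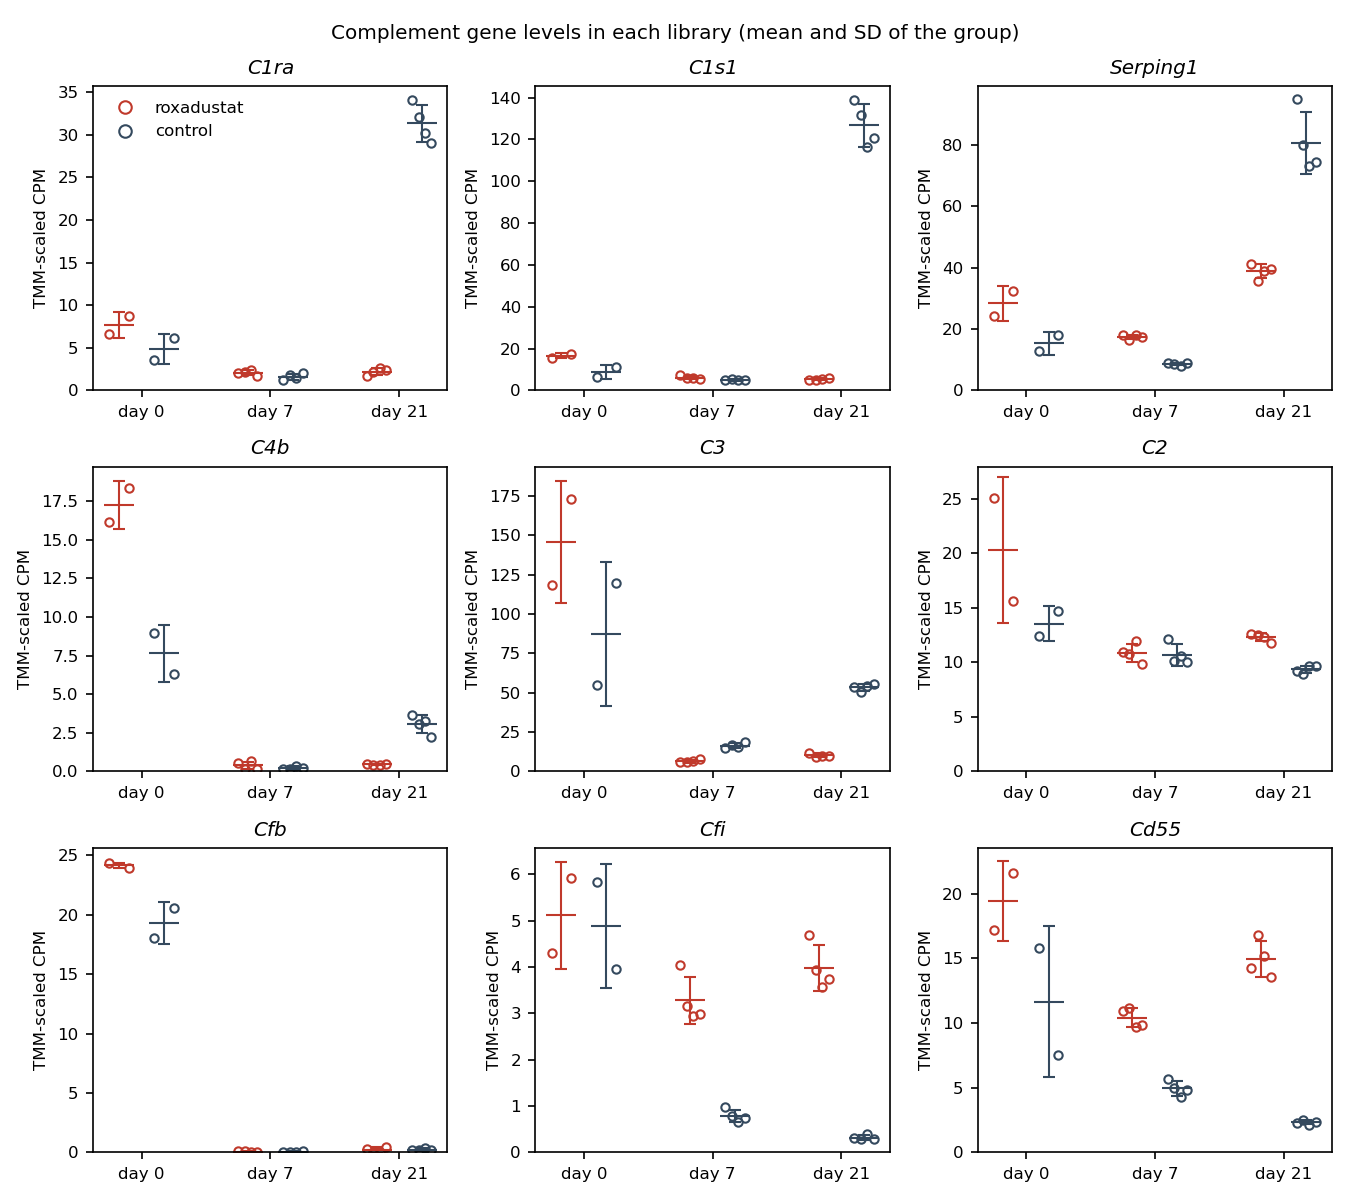
TMM-scaled CPM of the 9 members in each library (circles), with the group mean (bar) and SD, for roxadustat (red) and control (blue) cells at each day. Axes are linear, start at 0 and differ between panels. C1ra and C1s1 stood at 31.4 and 127 CPM in control cells of day 21 and at most 7.69 and 16.5 CPM on average in any other group, while Cfi and Cd55 were lowest there.

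With roxadustat 5 of the 9 members rose at day 0 (Serping1, C2, Cd55, C1s1 and C4b), and the other 4 were not called. Calls rest on edgeR's quasi-likelihood test in 1 model of all libraries with a Benjamini-Hochberg adjusted p below 0.05, the SE follows each log2 value, and 6.83% of the 18731 genes tested were called at day 0 (2.73% higher). Beside them 8 of 12 fibroblast and 8 of 12 macrophage markers rose, 5 of 12 epithelial and 9 of 10 endothelial markers fell, and their part in the day 0 results was not tested. At day 7, 3 members rose (Serping1, Cd55 and Cfi), C3 fell and 5 were not called, against 47.7% of all genes called (24.1% higher and 23.6% lower). At day 21, 3 rose (C2, Cd55 and Cfi), 5 fell (Serping1, C3, C1s1, C1ra and C4b) and Cfb was not called, against 62.9% of all genes (30% higher and 32.9% lower). The median log2 fold change of the members was 0.73, 0.34 and -1.06 at days 0, 7 and 21, against -0.01, 0.03 and 0.00 over all genes tested. All 9 passed the filter on low counts, but Cfb had enough counts in both day 0 groups alone, C4b in those and in control cells of day 21, and Cfi in every group except control day 21. A member that passed through its high groups had to differ from its low ones, so these counts are descriptions.

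**Figure D2:**
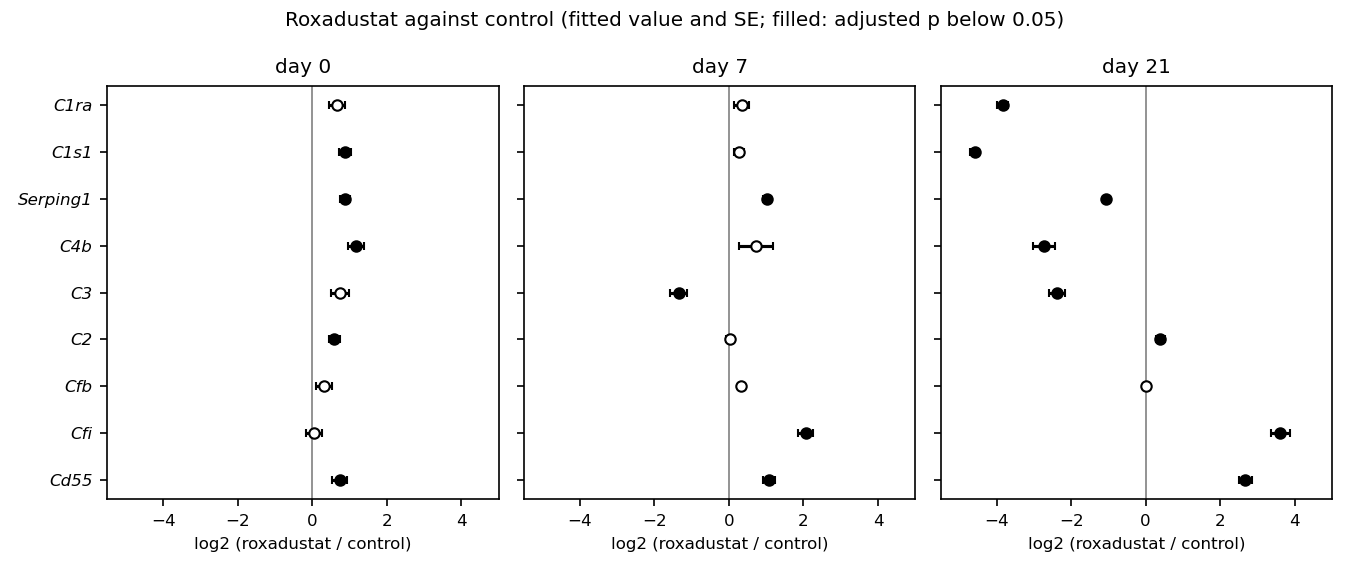
Fitted log2 ratio of roxadustat to control for each member at days 0, 7 and 21 with its SE, filled where the adjusted p was below 0.05; Cfb has no SE drawn at days 7 and 21, where its counts were near 0. Values spread from 0.06 to 1.17 at day 0 and from -4.59 (C1s1) to 3.62 (Cfi) at day 21.

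The 2 protease genes of C1 had the largest falls among the members. C1s1 had 5.03, 4.77, 5.27 and 5.90 CPM in roxadustat cells of day 21, against 139, 132, 116 and 120 CPM in control cells. C1ra had 1.70, 2.11, 2.68 and 2.36 CPM in roxadustat cells, against 34.1, 32.1, 30.3 and 29.1 CPM in control cells. The groups lay far apart for both genes. The log2 fold change was -4.59 ± 0.11 for C1s1 (SE, adjusted p = 2.25e-22, edgeR) and -3.84 ± 0.15 for C1ra (adjusted p = 9.81e-19). At day 7 neither was called (adjusted p = 0.0894 for C1s1 and 0.167 for C1ra, edgeR), but C1s1 was called higher with only the groups compared (adjusted p = 0.0409), with library size alone (adjusted p = 0.0344), and without either control replicate of day 0 or roxadustat replicate 4 of day 7 (adjusted p of 0.0401 to 0.0459). C1s1 averaged 6.16 ± 0.79 CPM in roxadustat cells, against 5.06 ± 0.39 CPM in control cells (SD, n = 4 each), and C1ra averaged 2.07 ± 0.27 CPM in roxadustat cells, against 1.62 ± 0.36 CPM in control cells. At day 0 C1s1 rose, with 15.6 and 17.3 CPM in roxadustat mice and 6.56 and 11.3 CPM in control mice (log2 0.89 ± 0.16, adjusted p = 0.000897, edgeR). C1ra had 6.62 and 8.75 CPM in roxadustat and 3.57 and 6.12 CPM in control mice at day 0 (log2 0.66 ± 0.21, adjusted p = 0.0548, edgeR). Over the 27 alternatives its value ran from log2 0.31 to 1.09, the highest without control replicate 2. Among fits that kept all libraries, C1ra was called with no filter, library size alone or the replicate number as a block (adjusted p of 0.0237 to 0.0476, edgeR).

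The ratio of C1s1 to C1ra counts in a library was 1.84 to 4.14 over all 20. It was 3.85 to 4.14 in control cells of day 21, overlapping with control cells of day 7 (2.49 to 4.00). In roxadustat cells it was 2.63 to 3.57 at day 7 and at most 2.96 at day 21. The 2 genes were near each other in course: their log2 levels, each centred on its mean of the 6 groups, differed by a root mean square of 0.38. At day 21, where both genes fell, 12 of 12 fibroblast markers fell with roxadustat, and at day 0, where C1s1 rose, 8 of 12 rose. At day 7, 6 of 12 fell while C1s1 and C1ra had log2 values of 0.28 and 0.34, and in the first week 7 of 12 rose in each arm while both genes fell. The part of these markers in the C1ra and C1s1 results was not tested. Close copies limit the counts, since 48.0% of the 50-base words of C1ra also occur in C1rb and 21.8% of those of C1s1 in C1s2. The copies themselves had 2 (C1rb) and 11 (C1s2) counts over all libraries, and reads that fit both genes may have been left out.

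Serping1, which encodes the inhibitor of C1r and C1s, followed another course. It had 41.2, 35.7, 39.0 and 39.5 CPM in roxadustat cells of day 21, against 94.9, 80.1, 73.1 and 74.4 CPM in control cells (log2 -1.06 ± 0.09, adjusted p = 6.28e-11, edgeR). At day 7 the order was the opposite, with 18.0, 16.6, 18.0 and 17.5 CPM in roxadustat and 9.06, 8.47, 8.11 and 8.80 CPM in control cells (log2 1.03 ± 0.11, adjusted p = 1.15e-08). It was also higher at day 0, with 24.4 and 32.3 CPM in roxadustat and 12.7 and 18.0 CPM in control mice (log2 0.88 ± 0.14, adjusted p = 0.000234). The groups did not overlap at any of the 3 days. For each Serping1 count there were 0.122 to 0.149 C1s1 counts in roxadustat libraries of day 21 and 1.46 to 1.64 in control libraries. At day 7 that ratio was 0.302 to 0.400 in roxadustat and 0.543 to 0.664 in control libraries, and at day 0 it was 0.536 to 0.641 in roxadustat and 0.515 to 0.626 in control libraries, so the groups overlapped only there.

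C4b, a gene of the C4 protein that C1s cleaves, was highest in fresh cells, with control cells of day 21 next. It had 16.2 and 18.3 CPM in roxadustat mice and 8.96 and 6.32 CPM in control mice at day 0 (log2 1.17 ± 0.22, adjusted p = 0.000992, edgeR). At day 21 it had 0.476, 0.444, 0.398 and 0.492 CPM in roxadustat cells, against 3.68, 3.06, 3.27 and 2.25 CPM in control cells (log2 -2.72 ± 0.28, adjusted p = 2.4e-09). At day 7 it lay at 0.388 ± 0.24 CPM in roxadustat cells, against 0.223 ± 0.11 CPM in control cells (SD, n = 4 each), from 2 to 12 counts a library, and the groups overlapped. C4a, a close copy that shares 34.6% of the 50-base words of C4b, had 254 counts over all libraries.

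C2, whose product joins C4b in the C3 convertase, varied least. It had 25.0 and 15.6 CPM in roxadustat mice and 12.4 and 14.7 CPM in control mice at day 0 (log2 0.59 ± 0.15, adjusted p = 0.0142, edgeR). This call rested on single libraries and was lost without roxadustat replicate 1 (log2 0.19, adjusted p = 0.631) or control replicate 1 (log2 0.47, adjusted p = 0.108). At day 21 it had 12.6, 12.5, 12.3 and 11.8 CPM in roxadustat cells, against 9.21, 8.94, 9.66 and 9.62 CPM in control cells, a small rise without overlap (log2 0.40 ± 0.12, adjusted p = 0.0039). At day 7 it was not called, at 10.9 ± 0.86 CPM in roxadustat cells, against 10.7 ± 0.98 CPM in control cells (SD, n = 4 each; log2 0.02 ± 0.11, SE).

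C3, the protein at which all pathways meet, fell with roxadustat in culture. At day 21 it had 12.0, 9.10, 10.04 and 10.1 CPM in roxadustat cells, against 53.6, 50.4, 54.5 and 55.2 CPM in control cells (log2 -2.38 ± 0.21, adjusted p = 6.34e-08, edgeR). At day 7 it had 6.05, 5.66, 6.38 and 7.64 CPM in roxadustat cells, against 15.0, 16.5, 15.5 and 18.7 CPM in control cells (log2 -1.35 ± 0.23, adjusted p = 0.00017). Roxadustat cells were below control cells at both times with no overlap. Beside C3, 6 of 12 fibroblast and 11 of 12 macrophage markers fell with roxadustat at day 7, and their part in the C3 result was not tested. In fresh cells the libraries overlapped, with 118 and 173 CPM in roxadustat mice and 54.7 and 119 CPM in control mice (log2 0.74 ± 0.25, adjusted p = 0.0962). Over the 27 alternatives that value ran from log2 0.27 to 1.40, the highest without control replicate 2. The comparison was called with no filter on low counts (log2 0.71 ± 0.10, adjusted p = 2.92e-10, edgeR). That value was close to the one with the filter, and only the fitted SE was much smaller, although the libraries overlapped.

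Cfb, the serine protease of the alternative pathway convertase, was far higher in the day 0 libraries than in culture. It had 24.3 and 24.0 CPM in roxadustat mice and 18.0 and 20.5 CPM in control mice (log2 0.32 ± 0.21, adjusted p = 0.451, edgeR). In culture it summed to 6 counts over the roxadustat and 4 counts over the control libraries of day 7, and to 15 counts in roxadustat and 14 counts in control libraries of day 21, where roxadustat replicate 4 alone held 10. Its level there was at most 0.492 CPM in any library, and no effect of roxadustat could be resolved at that depth. Of its exon bases 79.5% are shared with Gm20547, a gene model that runs through Cfb and C2 and had 0 counts in all libraries, so the Cfb and C2 values may miss reads from the shared exons. C2 shares 46.9% of its exon bases, 42.8% with Gm20547 and 4.16% with Zbtb12, which had 1159 counts over all libraries. C1s1 shares 18.4% with Gm16567, which had 0 counts, so its values may miss reads as well.

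The 2 members that limit the C3 convertase apart from C1 inhibitor moved the other way in culture. Cfi had 4.69, 3.94, 3.58 and 3.74 CPM in roxadustat cells of day 21, against 0.307, 0.300, 0.399 and 0.281 CPM in control cells, which is 4 to 5 counts a control library (log2 3.62 ± 0.25, adjusted p = 4.99e-13, edgeR). At day 7 it had 4.03, 3.16, 2.94 and 2.98 CPM in roxadustat cells, against 0.971, 0.781, 0.649 and 0.752 CPM in control cells (log2 2.06 ± 0.20, adjusted p = 1.8e-09). The groups did not overlap at either time. At day 0 it had 4.31 and 5.93 CPM in roxadustat and 5.84 and 3.95 CPM in control mice (log2 0.06 ± 0.22, adjusted p = 0.945).

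Cd55 had 14.2, 16.8, 15.2 and 13.5 CPM in roxadustat cells of day 21, against 2.27, 2.52, 2.16 and 2.32 CPM in control cells (log2 2.68 ± 0.18, adjusted p = 1.13e-12, edgeR). At day 7 it had 10.9, 11.1, 9.71 and 9.86 CPM in roxadustat cells, against 5.69, 4.96, 4.27 and 4.83 CPM in control cells (log2 1.08 ± 0.16, adjusted p = 2.52e-06). Roxadustat cells were above control cells at both times with no overlap. At day 0 it had 17.2 and 21.6 CPM in roxadustat mice and 15.8 and 7.50 CPM in control mice (log2 0.73 ± 0.20, adjusted p = 0.0239), a call that was lost without control replicate 2 (log2 0.29, adjusted p = 0.372) or roxadustat replicate 2 (log2 0.56, adjusted p = 0.218) and was log2 1.36 without control replicate 1. Cfi and Cd55 were the closest pair of members in course, with a root mean square difference of 0.28. Of the epithelial markers 10 of 12 rose with roxadustat at day 7 and 10 of 12 at day 21, as both genes did, while 5 of 12 fell at day 0, where Cd55 rose. The part of these markers in the Cfi and Cd55 results was not tested.

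As a contrast of substrate and inactivator, there were 2.31 to 2.81 C3 counts for each Cfi count in roxadustat libraries of day 21, against 136 to 196 in control libraries. The control ratios of day 21 are coarse, since they rest on 4 to 5 Cfi counts a library. At day 7 the ratio was 1.5 to 2.56 in roxadustat and 15.5 to 24.9 in control libraries. At day 0 it was 27.4 to 29.2 in roxadustat and 9.37 to 30.3 in control libraries, where the groups overlapped.

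The calls at day 0 were made in a model that also holds the cultured libraries. With the day 0 libraries fitted alone by edgeR, none of the 9 members was called, 5 had an unadjusted p below 0.05, the lowest adjusted p was 0.107 (C4b), and 23 genes were called in all. Fitted values were close, such as 1.19 for C4b and 0.90 for Serping1. DESeq2 on all libraries called 5 members.

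In the first week of culture all 9 members fell in both arms, against 37.6% of all genes called lower in roxadustat cells (74.6% called in either direction) and 39.5% in control cells (76.5% in either direction). The median member changed by log2 -1.42 in roxadustat and -1.57 in control cells, against 0.03 in roxadustat and -0.03 in control cells over all genes. Cfb fell most, with log2 -8.23 in both arms. It passed the filter on low counts through the day 0 groups alone, and C4b through those and control cells of day 21. Given those groups, both had to be lower at day 7, so the count of 9 members is a description. C4b changed by log2 -5.49 ± 0.25 in roxadustat and -5.03 ± 0.31 in control cells, and C3 by -4.49 ± 0.24 in roxadustat and -2.40 ± 0.22 in control cells. Serping1 changed by -0.69 ± 0.12 in roxadustat and -0.83 ± 0.14 in control cells. Over the same interval epithelial markers fell, 10 of 12 in roxadustat and 12 of 12 in control cells, as did 9 of 10 endothelial markers in each arm. Of 12 macrophage markers, 12 fell in roxadustat cells, and 8 rose and 3 fell in control cells. Of 12 fibroblast markers 7 rose in each arm, while 5 fell in roxadustat and 4 in control cells. The part of these markers in the members' falls was not tested. The smallest falls depended on the setting: C2 in control cells (log2 -0.34, adjusted p = 0.0225, edgeR) turned to 0.08 with library size alone and was not called without control replicate 2 of day 0 (adjusted p = 0.306) or control replicate 4 of day 7 (adjusted p = 0.0531). C1s1 in control cells (log2 -0.81) was not called without control replicate 2 of day 0 (log2 -0.35, adjusted p = 0.0798, edgeR), and Cfi in roxadustat cells (log2 -0.63) was not called without roxadustat replicate 2 of day 0 (log2 -0.38, adjusted p = 0.181). With library size alone, Cfi (log2 -0.20, adjusted p = 0.349) and Serping1 (log2 -0.25, adjusted p = 0.0569, edgeR) were not called in roxadustat cells. Without 1 control library of day 0 the fall in control cells was log2 -0.59 for Cd55 (replicate 1, against -1.24 with all) and -1.71 for C3 (replicate 2).

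Between days 7 and 21 the arms parted. In control cells 6 members rose (Serping1, C3, C1s1, C1ra, C4b and Cfb), 2 fell (Cd55 and Cfi) and C2 was not called, against 68.7% of all genes called (34.5% higher and 34.3% lower). In roxadustat cells 4 rose (Serping1, C3, Cd55 and Cfb) and 5 were not called, against 61.5% of all genes (28.6% higher). C1s1 changed by log2 -0.23 ± 0.14 in roxadustat cells, which was not called, and rose by 4.65 ± 0.11 in control cells. C1ra changed by 0.08 ± 0.19 in roxadustat cells, which was not called, and rose by 4.26 ± 0.15 in control cells. Serping1 rose in both, by 1.15 ± 0.10 in roxadustat and 3.23 ± 0.10 in control cells. C4b changed by 0.28 ± 0.40 in roxadustat cells, not called, and rose by 3.72 ± 0.32 in control cells. Over this interval 1 of 12 fibroblast markers rose and 5 fell in roxadustat cells, and 12 of 12 rose in control cells. Of 12 epithelial markers 2 rose and 9 fell in roxadustat cells, where Cd55 rose, and 10 fell in control cells, where Cd55 and Cfi fell. The part of these markers in the results was not tested.

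C3 rose by log2 0.67 ± 0.25 in roxadustat cells (adjusted p = 0.0309, edgeR) and by 1.70 ± 0.20 in control cells. The first of these calls was lost without any of roxadustat replicates 1, 2 and 3 of day 7 or 1 and 4 of day 21, at adjusted p of 0.0511 to 0.0843. Cd55 rose by 0.52 ± 0.14 in roxadustat and fell by 1.08 on the log2 scale in control cells. Cfi changed by 0.28 ± 0.16 in roxadustat cells, which was called only with the groups compared alone (adjusted p = 0.0374, edgeR) or without roxadustat replicate 1 of day 7 (adjusted p = 0.0462), and fell by 1.28 on the log2 scale in control cells. C2 was called higher in roxadustat cells with library size alone (log2 0.27) or only the groups compared (log2 0.25), and lower in control cells with library size alone (log2 -0.39) or without either roxadustat replicate of day 0 (log2 -0.21). The rises of Cfb rested on 15 against 6 counts in roxadustat and 14 against 4 counts in control cells, and were easily lost. The call in roxadustat cells was lost without control replicate 1 or 2 of day 7, either roxadustat replicate of day 0, roxadustat replicate 2, 3 or 4 of day 7, or roxadustat replicate 1 or 4 of day 21, with log2 0.63 and an adjusted p of 0.526 (edgeR) in the last case. The call in control cells was lost without control replicate 2 or 3 of day 7 or replicate 3 of day 21.

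**Figure D3:**
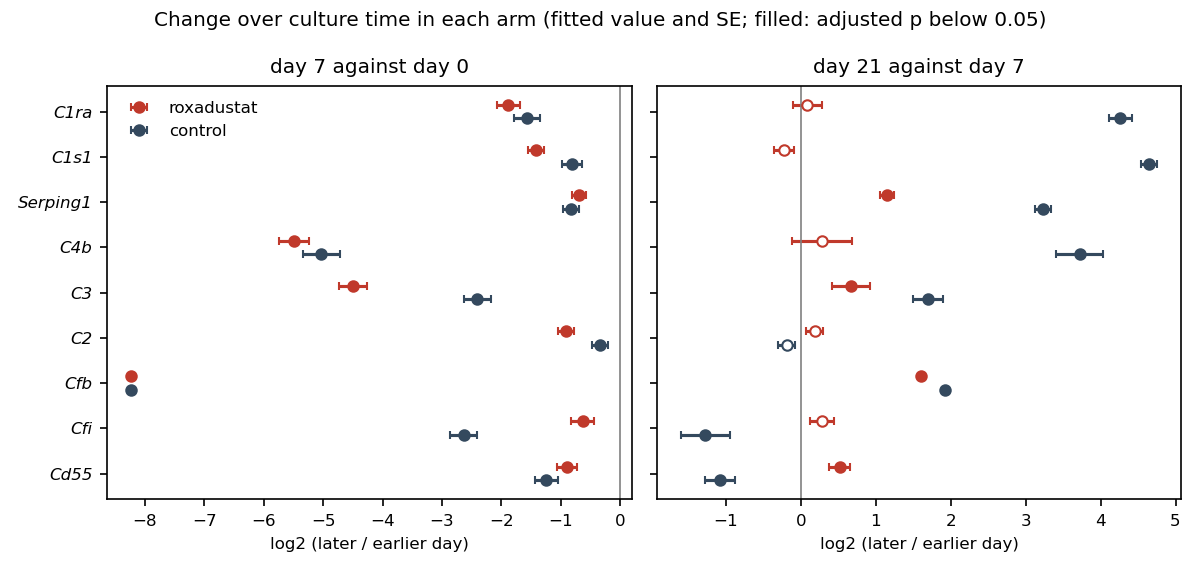
Fitted log2 change of each member from day 0 to day 7 (left) and from day 7 to day 21 (right) in roxadustat (red) and control (blue) cells, with SE (none drawn for Cfb) and filled points for an adjusted p below 0.05. All points lie below 0 on the left; on the right C1ra, C1s1 and C4b lie between -0.23 and 0.28 in roxadustat cells and between 3.72 and 4.65 in control cells.

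The difference between these changes was tested itself. From day 7 to day 21 the roxadustat effect moved lower for Serping1, C3, C1s1, C1ra and C4b and higher for Cd55 and Cfi, 7 of 9 members, against 44.7% of all genes (20.9% higher and 23.8% lower). The largest was C1s1 (log2 -4.87 ± 0.18, adjusted p = 4.15e-18, edgeR) and the smallest of those called was C3 (-1.03 ± 0.32, adjusted p = 0.0166), which was not called with library size alone (adjusted p = 0.0691). C2 was not called (log2 0.37, adjusted p = 0.0592, edgeR) but was called higher with DESeq2 (adjusted p = 0.0359), its size factors in edgeR (0.0279), library size alone (0.000887) and only the groups compared (0.00664), and without either roxadustat replicate of day 0 or roxadustat replicate 3 of day 7 (0.0166 to 0.0438). From day 0 to day 7 the effect moved higher for Cfi (2.00 ± 0.30, adjusted p = 7.93e-06) and lower for C3 (-2.09 ± 0.34, adjusted p = 0.000218), C2 (-0.57 ± 0.19, adjusted p = 0.0215) and C1s1 (-0.61 ± 0.21, adjusted p = 0.0335), against 28.9% of all genes (15.5% higher and 13.4% lower). The C2 call was lost without control or roxadustat replicate 1 of day 0 (log2 -0.46 and -0.18). That of C1s1 was lost with only the groups compared (log2 -0.62, adjusted p = 0.0560, edgeR). It was also lost without control replicate 1 (log2 -0.27) or roxadustat replicate 2 (log2 -0.54) of day 0. The same held without control replicate 2 of day 7 or roxadustat replicate 2 or 4 of day 7 (adjusted p of 0.0530 to 0.0712, edgeR). For Cd55 the difference was not called (log2 0.35) but was without control replicate 2 of day 0 (log2 0.78, adjusted p = 0.00225).

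Of 51 other complement genes on a list, 37 had enough counts to be tested. At day 21, 7 rose and 22 fell with roxadustat, against 30% higher and 32.9% lower over all genes. At day 7 there were 8 that rose and 16 that fell (24.1% higher and 23.6% lower over all genes), and at day 0 there were 7 that rose and 3 that fell (2.73% higher and 4.11% lower over all genes). The chains of C1q, which start the classical pathway, went with the macrophage markers. C1qa had 22.4 ± 8.27 CPM in roxadustat and 7.65 ± 0.48 CPM in control mice at day 0 (SD, n = 2 each), 0.859 ± 0.15 CPM in roxadustat cells, against 26.7 ± 1.10 CPM in control cells at day 7 (n = 4 each), and 1.05 ± 0.36 CPM in roxadustat cells, against 25.4 ± 2.88 CPM in control cells at day 21. C1qb and C1qc changed alike, by log2 1.36 and 1.35 at day 0 and by -4.78 and -4.62 at day 21. Macrophage markers (12 genes, none at 0) summed to 261 to 340 CPM in roxadustat and 195 to 202 CPM in control libraries at day 0, and to 16.9 to 19.5 CPM in roxadustat and 266 to 314 CPM in control libraries at day 21. At day 7 C1qa changed by log2 -4.94 ± 0.18 with roxadustat.

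Among other genes on that list, Thbd, the thrombomodulin gene, rose by log2 3.03 ± 0.12 between days 7 and 21 in control cells, and C1rl, a relative of C1r, by 2.03 ± 0.12. Colec12, a collectin of the cell surface, had 29.6 ± 3.29 CPM in roxadustat cells, against 415 ± 33.1 CPM in control cells of day 21. Clu, which encodes clusterin, an inhibitor of the terminal complex, had 102 ± 6.81 CPM in roxadustat cells, against 4.36 ± 0.39 CPM in control cells of day 21 (log2 4.54 ± 0.08, adjusted p = 1.54e-26). Csmd1, a membrane inhibitor of the convertases, had 67.9 ± 2.55 CPM in roxadustat cells, against 3.47 ± 0.25 CPM in control cells. Cpn1, a subunit of the carboxypeptidase that trims the anaphylatoxins, had 8.08 ± 0.62 CPM in roxadustat cells of day 21 and 3 counts in all over the control cells. Of the 12 regulators tested, 5 rose and 5 fell at day 21, and of the 8 receptors 1 rose and 7 fell.

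**Figure D4:**
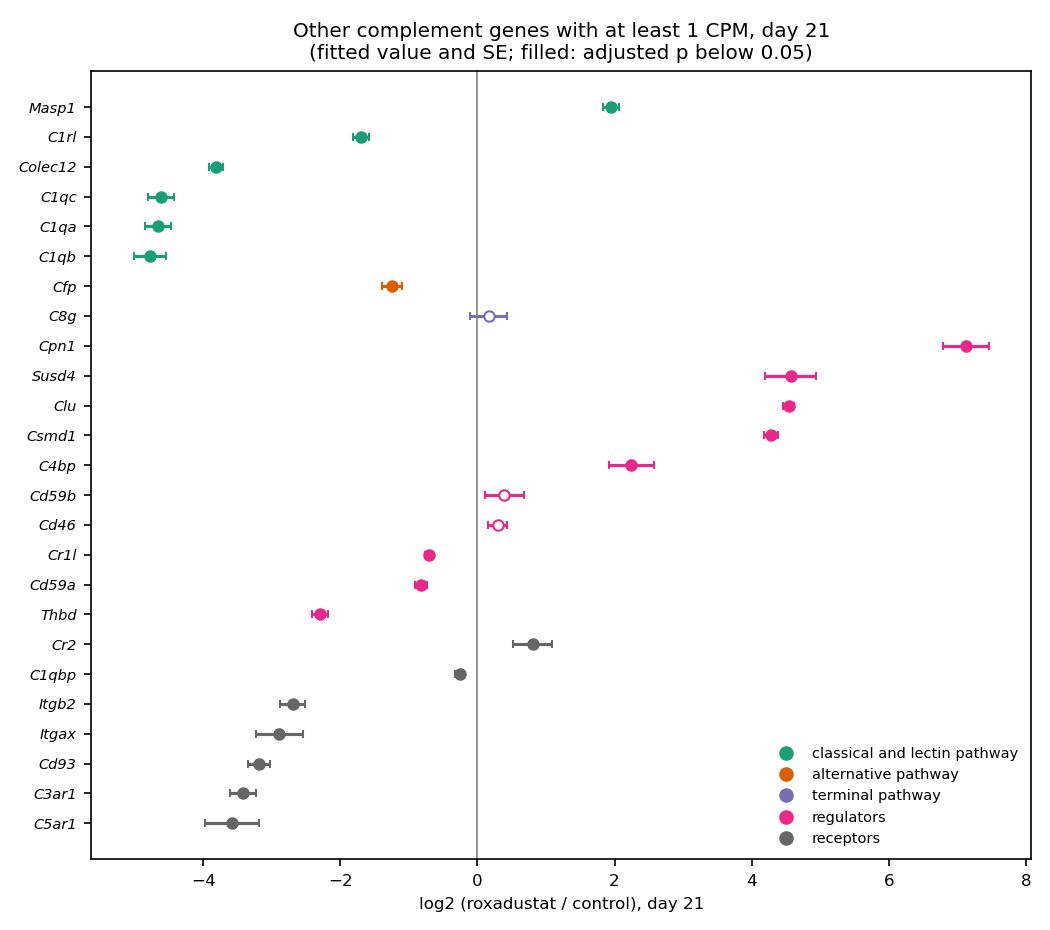
Fitted log2 ratio of roxadustat to control at day 21, with SE, for 25 other complement genes with at least 1 CPM in 1 of the 2 groups, grouped by role; filled points (22 genes) have an adjusted p below 0.05. The C1q chains and Colec12 lie between -4.78 and -3.81, and Clu, Csmd1 and Susd4 between 4.28 and 4.57. The fitted value of Cpn1 rests on 3 counts in control cells.

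At day 0 the lectin gene Fcna and the properdin gene Cfp were among those that rose (log2 2.22 ± 0.42 and 1.44 ± 0.20), and Susd4, a complement inhibitor, fell by 0.82 on the log2 scale. At day 7 the receptor genes Itgax, Cd93 and C3ar1 fell by 4.40, 3.13 and 2.93 on the log2 scale, beside the C1q chains. In the first week C8a, a chain of the terminal complex, fell to 0 counts in roxadustat cells, against 16.3 ± 3.21 CPM in fresh roxadustat cells (SD, n = 2), while Csmd1 had 14.4 ± 1.91 CPM in roxadustat cells of day 7 and 3 counts in fresh roxadustat cells. Between days 7 and 21 in roxadustat cells, Csmd1 rose by 2.23 ± 0.08, Cd46 by 1.29 ± 0.14 and Masp1, a protease of the lectin pathway, by 1.15 ± 0.11.

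Of 16 genes of NF-kB and acute phase signalling, 4 rose and 11 fell with roxadustat at day 21, against 62.9% of all genes called. At day 7, 6 rose and 7 fell, against 47.7% called, and at day 0, 6 fell and 10 were not called, against 6.83% called. Vcam1 had 179 ± 5.07 CPM in roxadustat cells, against 543 ± 26.1 CPM in control cells of day 21, and Socs3 had 14.8 ± 1.34 CPM in roxadustat cells, against 61.2 ± 3.73 CPM in control cells. Lcn2, an acute phase gene, was higher with roxadustat at day 7, at 3.75 ± 0.70 CPM in roxadustat cells, against 1.13 ± 0.31 CPM in control cells. Ly6a, the gene of the sorted protein, was at 469 to 528 CPM in roxadustat and 161 to 199 CPM in control libraries of day 21.

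The genes most like each member over the 6 group means, among 11244 genes with at least 10 CPM in a group, were named by the root mean square difference of centred log2 levels. They were Epyc, Ms4a4d and Col24a1 for C1s1 (0.24 to 0.38) and Rassf2, Gas6 and Ephb2 for C1ra (0.25 to 0.39). Bcl9l, Nfia and Gm38381 were nearest to Serping1 (0.25 to 0.37), Rgs1, Mertk and Fkbp5 to C3 (0.25 to 0.32), and Gpr155, Arsg and Tcea3 to C4b (0.31 to 0.41). Tfec was nearest to both Cfi (0.15) and Cd55 (0.21), followed by Tmem102 and Fhit for Cfi and by Gclc and Zfp810 for Cd55. Trub1, Sfpq and Rrm2b were nearest to C2 (0.09 to 0.10), and Gm20706, Gm42397 and Hspa1a to Cfb (0.15 to 0.16); Hspa1a has a near-identical copy, Hspa1b, so its value is uncertain.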

How the data were processed

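RNA was extracted with Trizol and made into non-stranded TruSeq mRNA libraries, per the labels' protocols. The deposited files hold raw read counts per Ensembl gene, 1 file per library; STAR 2.5.2a, featureCounts 1.5.0-p1, bcl2fastq and the mm10 build are named in the submitters' processing notes. The annotation release and the handling of multiply mapped or overlapping reads are not given in the sources used here. Without strand, reads of overlapping genes cannot be told apart.

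Of 47729 gene identifiers 47224 matched a symbol. Counts of all 20 libraries were fitted in 1 model with edgeR 4.0.16 in R 4.3.3 (filterByExpr, TMM, robust quasi-likelihood F test, 18731 genes, Benjamini-Hochberg adjustment, threshold 0.05). Standard errors were taken as |log2 fold change| over the root of the F statistic. DESeq2 1.42.0, other scalings, no filter (34124 genes), only the groups compared, a replicate block, control libraries of day 21 summed in pairs, and each library left out in turn were alternatives. Where 1 library remained at day 0, it was taken to have the spread of the remaining groups. The fit was tested on simulated data.

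All 9 members are named. Other complement genes are named where called and where the higher group reached 5 CPM, up to 6 per comparison by fold change, some of which are left out of the text, along with the C1q chains and the members' close copies; signalling genes are examples by p. Some listed genes are not reported here. Likeness uses log2(CPM + 0.5) and may be led by a few groups. The members and all lists were chosen with earlier results of these data known.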

Additional observations from a re-analysis of the deposited data

Results flagged for a closer look

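The effect of roxadustat differed between day 21 and day 7 for 7 members by a test of the difference itself (edgeR). On the log2 scale the effect at day 21 minus that at day 7 was -4.87 for C1s1, -4.18 for C1ra, -3.44 for C4b, -2.08 for Serping1 and -1.03 for C3, and 1.60 for Cd55 and 1.56 for Cfi. Serping1 is the member whose own effect was called in opposite directions, at log2 -1.06 at day 21 and 1.03 at day 7.

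Between day 7 and day 0 the effect differed by log2 2.00 for Cfi, -2.09 for C3, -0.57 for C2 and -0.61 for C1s1, with 2 libraries a group at day 0. The calls of C2 and C1s1 were lost in some of the alternatives.

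Cfb in control cells of day 21 had 1 library (replicate 3) far from the other 3, at 0.399 CPM from 5 counts, against 3 counts in each of the others. Of 36 groups of 4 libraries looked at, chance gives such a gap in about 1 in 20.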

How the results depend on the processing

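Of 81 results (9 members in 9 comparisons), 58 kept their side of the threshold in all 27 alternatives. Over all fits 43 were weaker, 26 stronger and 1 reversed, where a change of sign counted only if a fit was called. Values that were not called crossed 0 for some members. With roxadustat, Cfi at day 0 ran from log2 -0.21 to 0.36 and Cfb at day 21 from -0.96 to 0.38. The reversed one is C2 at day 7 against day 0 in control cells, 0.0812 on the log2 scale with library size alone. At day 0 C1ra and C3, not called in the model of all libraries, were called with no filter. C1ra was also called there with library size alone (adjusted p = 0.0392, edgeR). With only the day 0 groups fitted, 0 members were called at day 0 (5 in the model of all libraries), and 23 genes in all against 1280. With 1 library left out, 4 to 6 members were called with roxadustat at day 0, 4 to 5 at day 7 and 8 to 8 at day 21. For day 7 against day 0 the range was 8 to 9 in roxadustat and 7 to 9 in control cells, and for day 21 against day 7 it was 2 to 4 in roxadustat and 7 to 9 in control cells. The effect differed for 2 to 5 members between days 7 and 0 and for 7 to 8 between days 21 and 7. Library size alone moved the median of all genes to 0.34 (roxadustat against control, day 21), 0.46 and 0.40 (day 7 against day 0, roxadustat and control), -0.19 (day 21 against day 7, control) and 0.26 (difference of effects, day 21 minus day 7). Calls over all genes were then 9372 higher and 3549 lower at day 21 (5616 and 6165 with TMM), 699 and 524 at day 0 (511 and 769), 9479 and 5201 for day 7 against day 0 in roxadustat cells (6947 and 7035), 9073 and 5645 in control cells (6925 and 7401), 5063 and 8172 for day 21 against day 7 in control cells (6456 and 6421), and 6504 and 2501 for the difference of effects between days 21 and 7 (3919 and 4463). The cause of these changes was not tested.

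Same-numbered libraries were not steadily alike: their deviations from the group mean correlated at -0.531 to 0.267 at day 21 and -0.148 to 0.152 at day 7. At day 0 both pairs gave 0.115 by construction, because the 2 libraries of a group deviate equally from their mean. Roxadustat replicate 1 of day 21 correlated at 0.499 and 0.486 with control replicates 3 and 4, and at -0.531 and -0.461 with 1 and 2. The labels name no shared source. With the replicate number as a block, C1ra was called at day 0 (adjusted p = 0.0476, edgeR) and Cfb was not called for day 21 against day 7 in roxadustat cells (adjusted p = 0.0623).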
